A study of Mus musculus with 6 samples.

Results

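C-type lectin receptors are membrane proteins with which myeloid cells bind sugars and lipids on microbes and on damaged cells. The 9 genes described here, Mrc1, Cd209a, Clec10a, Clec7a, Clec4n, Clec4a2, Clec4d, Clec4e and Clec5a, were taken by gene name from a table of 23398 genes. RNA was sequenced from mouse bone marrow derived dendritic cells kept in DMEM medium with serum and antibiotics. For 12 hours the cells received either vehicle or nanoparticles of Ca(OH)2 (calcium hydroxide), with 3 libraries in each group. The labels name no mouse strain, age, nanoparticle dose or culture growth factor, and they do not say whether the libraries came from separate animals or cultures, so the tests measure the spread between these libraries, which may be technical. Levels are in FPKM (fragments per kilobase of gene, relative to 1 scale per library), so they can be compared between genes. That scale takes most genes as unchanged and does not follow the read totals, so comparisons between libraries rest on it. Changes are differences of log2(FPKM + 1) between the nanoparticle and the vehicle group, a scale that understates the change of genes with low levels, and they were tested with limma over the 10682 genes that reached 1 FPKM in 3 or more libraries. All 9 receptors were among the genes tested, Cd209a through its vehicle libraries alone and Clec10a through these and nanoparticle library 3.

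The family divides by what its members do after binding. Mrc1 (the mannose receptor CD206), Cd209a (a mouse relative of DC-SIGN) and Clec10a (the galactose-binding lectin MGL1) chiefly carry sugar-bearing ligands into the cell. Clec7a (Dectin-1, a receptor for fungal beta-glucan), Clec4n (Dectin-2, for mannans), Clec4d (MCL) and Clec4e (Mincle, for mycobacterial cord factor and for material from dead cells) activate the kinase Syk, Clec7a through a motif in its own tail and the others through the Fc receptor gamma chain, encoded by Fcer1g. Clec5a (MDL-1) signals through the adaptor DAP12, encoded by Tyrobp, and Clec4a2 (DCIR) carries an inhibitory motif in its tail. The label of antigen uptake receptors therefore describes some of these genes better than others.

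The 6 libraries held 17300128 to 21990197 reads recovered from the FPKM values. Nanoparticle library 1 stood apart. Its log2(FPKM + 1) values correlated, over genes (which do not count as replicates), at 0.942 and 0.928 with nanoparticle libraries 2 and 3, which correlated at 0.990 with each other, and vehicle libraries correlated at 0.993 to 0.994. Results on the 9 receptors are therefore given with and without it. As a check of the labelled cell type, the dendritic cell integrin Itgax was at 442 to 456 FPKM and the MHC class II gene H2-Ab1 at 982 to 1035 FPKM in vehicle. The dendritic cell growth factor receptor Flt3 reached at most 0.0793 FPKM in any library. Of the same dendritic cell list, Zbtb46 was at 3.66 to 4.15 FPKM and Xcr1 at 0.0902 to 0.181 FPKM in vehicle. The macrophage genes Csf1r and C1qb were at 158 to 159 and 256 to 325 FPKM in vehicle. Genes of both marker lists were thus present, with those of dendritic cells ranging from abundant to almost undetected. In such a bulk sample, fewer cells of a type and less RNA per cell cannot be told apart.

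Of the 9 receptors, 2 rose, 3 fell and 4 did not pass the test at a Benjamini-Hochberg adjusted p of 0.05. Clec4e and Clec4d rose, while Mrc1, Cd209a and Clec10a fell. Over all genes tested 33.2% passed, 17.0% higher and 16.2% lower, so a share of 5 in 9 is to be read against a background in which a large part of the transcriptome differed. The median log2 change was -0.06 over the 9 receptors and -0.0010 over all genes tested. The vehicle and nanoparticle values did not overlap for 7 receptors, against 52.1% of all genes tested, and Clec4n and Clec5a were the exceptions. Without nanoparticle library 1, 8 of the 9 passed, 4 higher and 4 lower, against 64.8% of all genes (34.3% higher and 30.5% lower), and the one that did not was Clec7a. The directions are relative to the scaling of the deposited values: with libraries rescaled to equal FPKM sums, equal upper quartiles or equal read totals the median log2 change of all genes was -0.39, -0.16 and -0.29, and the 1817 genes higher and 1733 lower became 863 and 4416, 1263 and 2403, and 1097 and 3693. The same 2 receptors higher and 3 lower passed under each.

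**Figure D1:**
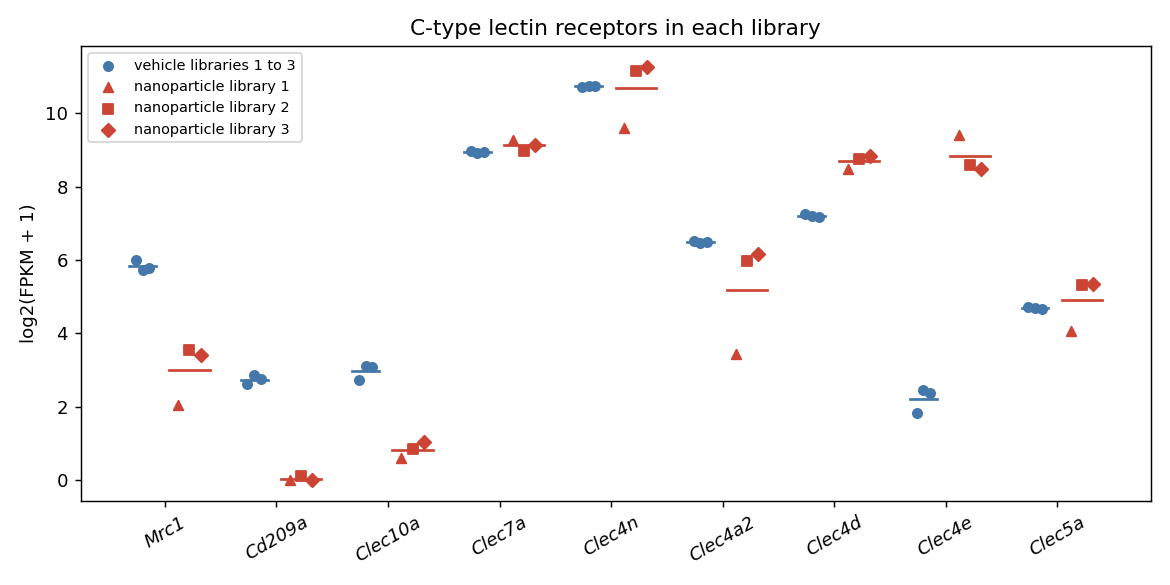
Level of each receptor transcript in each of the 6 libraries, as log2(FPKM + 1); points are libraries and horizontal lines group means. Clec4e lies far higher in all 3 nanoparticle libraries, and nanoparticle library 1 (triangles) lies below libraries 2 and 3 in 6 of the 9 genes.

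Clec4e, the gene of the receptor Mincle, showed the largest fitted change of the 9. It was at 2.54, 4.47 and 4.14 FPKM in vehicle libraries 1 to 3 and at 684, 382 and 357 FPKM in nanoparticle libraries 1 to 3. Every nanoparticle library lay far above every vehicle library, and nanoparticle library 1 was the highest. The ratio of the group means (3.72 ± 1.03 and 474 ± 182 FPKM, SD, n = 3 per group) was 128-fold, or 99.4-fold without nanoparticle library 1. The log2 change of Clec4e was 6.62 (SE 0.297, adjusted p = 6.6e-05 by limma), the 14th largest increase on the log2(FPKM + 1) scale among the genes tested, and 6.32 without nanoparticle library 1. The vehicle values rest on 251, 440 and 429 recovered reads and the nanoparticle values on 31346 to 55474.

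Clec4d, whose protein MCL pairs with Mincle at the cell surface, rose as well, from a much higher start. Vehicle libraries held 150.4, 146 and 144 FPKM of Clec4d and nanoparticle libraries 359, 431 and 459 FPKM. The groups did not overlap, and here nanoparticle library 1 was the lowest of its group. Clec4d went from 147 ± 3.24 to 416 ± 51.6 FPKM (SD, n = 3 per group), a 2.84-fold ratio of means and a log2 change of 1.49 (SE 0.138, adjusted p = 6.1e-04 by limma), or 1.59 without nanoparticle library 1. In vehicle the Clec4d level was 59.3, 32.6 and 34.8 times that of Clec4e in libraries 1 to 3. With nanoparticles it was 0.524, 1.13 and 1.28 times, so that the levels of the pair had come close to each other.

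Clec4d and Clec4e are neighbours. In GENCODE M21 on mouse build GRCm38, Clec4d (ENSMUSG00000030144) occupies bases 123262111 to 123275265 of chromosome 6, plus strand, and Clec4e (ENSMUSG00000030142) bases 123281789 to 123289870 on the minus strand, so their 3′ ends face each other across 6523 bases. The 250 bases before the RefSeq start site (GRCm38.p6) are shown for this pair, which rose together, and for Mrc1, the most abundant in vehicle of the 3 receptors that fell. The windows are chr6:123289872-123290121 on the minus strand for Clec4e, chr6:123261857-123262106 on the plus strand for Clec4d and chr2:14229164-14229413 on the plus strand for Mrc1. Each is written 5′ to 3′ on its gene's strand, and capitals mark a motif match.
Clec4e: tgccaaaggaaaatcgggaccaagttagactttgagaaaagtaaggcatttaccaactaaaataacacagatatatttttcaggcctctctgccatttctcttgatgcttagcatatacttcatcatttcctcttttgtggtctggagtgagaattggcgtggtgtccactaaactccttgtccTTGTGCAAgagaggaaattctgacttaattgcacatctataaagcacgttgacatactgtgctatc
Clec4d: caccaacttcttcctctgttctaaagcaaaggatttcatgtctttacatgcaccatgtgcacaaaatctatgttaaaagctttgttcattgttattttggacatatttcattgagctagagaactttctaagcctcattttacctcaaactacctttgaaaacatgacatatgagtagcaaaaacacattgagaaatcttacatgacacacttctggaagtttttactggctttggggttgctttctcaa
Mrc1: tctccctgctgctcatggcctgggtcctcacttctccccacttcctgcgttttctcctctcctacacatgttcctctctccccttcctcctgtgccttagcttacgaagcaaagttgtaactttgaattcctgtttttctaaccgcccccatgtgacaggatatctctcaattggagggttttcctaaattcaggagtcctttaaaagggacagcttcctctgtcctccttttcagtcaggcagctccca
Motifs were searched on both strands in the windows of the 7 receptors that the RefSeq table holds, all but Clec10a and Clec4n. A strict C/EBP consensus, found in 19 of all 32851 promoter windows of this length (0.0578%), was searched first and had no match in these 7. The looser C/EBP motif TTNNGCAA was then chosen, after that result was known and the windows had been read, and it matched once, as TTGTGCAA starting 66 bases before the start site of Clec4e. The looser motif occurs in 9.56% of all windows, so 1 match among 7 receptors says little about them. The NF-kappaB consensus (in 7.25% of all windows), the PU.1 motif GAGGAAGT (2.44%) and the AP-1 motif TGANTCA (6.75%) had no match in the windows of these 7 receptors, which says only that these letters are not in them. The search was first made over 300 bases, with 50 after the start site, where Clec4a2 also had an AP-1 match after its start site (7.81% of windows of that length), and the other motifs gave the same receptors. The transcript of Cebpb, which encodes a C/EBP factor, rose from 162 ± 22.4 to 452 ± 96.1 FPKM (SD, n = 3 per group), with a log2 change of 1.46 (SE 0.197, adjusted p = 0.0024 by limma).

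The mannose receptor gene Mrc1 (ENSMUSG00000026712, chromosome 2, 14229392 to 14332057, plus strand) was at 62.8, 51.8 and 54.3 FPKM in vehicle and at 3.10, 10.6 and 9.57 FPKM in nanoparticle libraries 1 to 3. All nanoparticle libraries were well below all vehicle libraries, with library 1 the lowest. The ratio of vehicle to nanoparticle means was 7.24-fold, and 5.57-fold without nanoparticle library 1. The log2 change of Mrc1 was -2.84 (SE 0.396, adjusted p = 0.0027 by limma), the 5th largest decrease among the genes tested, and -2.36 without library 1 (adjusted p = 4.9e-06 by limma). That rank is on the log2(FPKM + 1) scale, which understates decreases of genes with low levels.

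Cd209a (ENSMUSG00000031494, chromosome 8, 3743397 to 3748984, minus strand) was at 5.17, 6.21 and 5.69 FPKM in vehicle and at 0, 0.0763 and 0 FPKM with nanoparticles. In recovered reads this is 163, 195 and 188 against 0, 2 and 0, so the transcript was almost undetected in the treated cells. The ratio of the pooled reads, on the authors' library scale, was 235-fold with an exact 95% interval of 64.7 to 1944, which covers counting error only. The log2 change of Cd209a was -2.70 (SE 0.103, adjusted p = 3.7e-05 by limma) and -2.69 without nanoparticle library 1, a value that the added 1 holds down.

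Clec10a (ENSMUSG00000000318, chromosome 11, 70156197 to 70170834, plus strand) was at 5.63, 7.62 and 7.52 FPKM in vehicle and at 0.507, 0.813 and 1.04 FPKM in nanoparticle libraries 1 to 3. The groups were far apart, and nanoparticle library 1 was again the lowest. Its means differed 8.81-fold, with a log2 change of -2.15 (SE 0.163, adjusted p = 3.0e-04 by limma), or -2.03 without library 1. Clec10a rested on 325 to 455 recovered reads per vehicle library and 24 to 58 per nanoparticle library. Directions of these 3 and of Clec4d and Clec4e were the same under each rescaling of the libraries that was tried.

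**Figure D2:**
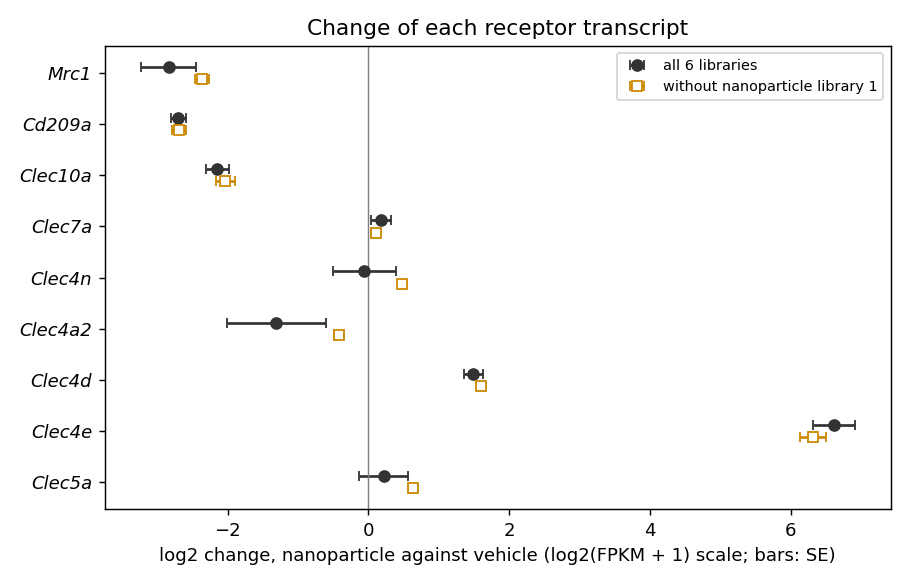
Log2 change of each receptor transcript between nanoparticle and vehicle libraries, with all 6 libraries (filled circles) and without nanoparticle library 1 (open squares); bars are standard errors. For Mrc1, Cd209a, Clec10a, Clec4d and Clec4e the estimates lie on the same side of 0, and Clec4n changes side.

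The most abundant receptor transcript was Clec4n, the gene of Dectin-2 (ENSMUSG00000023349, chromosome 6, 123229843 to 123247021, plus strand). It was at 1685, 1724 and 1712 FPKM in vehicle, values within a narrow band, and at 778, 2295 and 2476 FPKM in nanoparticle libraries 1 to 3. Nanoparticle library 1 lay below every vehicle library and libraries 2 and 3 above them. The log2 change of Clec4n over all libraries was -0.06 (SE 0.453, adjusted p = 0.936 by limma). Without nanoparticle library 1 it was 0.48 (adjusted p = 4.6e-04 by limma), a 1.40-fold ratio of means. On the deposited scaling, nanoparticle library 1 thus decides both the direction and the call. With equal FPKM sums, upper quartiles or read totals over all libraries, the log2 change of Clec4n was -0.53, -0.25 and -0.40, and none passed. The fit without library 1 was not rescaled. All genes summed to 463889 and 491404 FPKM in nanoparticle libraries 2 and 3, against 321728 to 328384 FPKM in vehicle.

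Clec5a, the gene of the DAP12-coupled receptor MDL-1 (ENSMUSG00000029915, chromosome 6, 40574894 to 40585821, minus strand), divided in the same way. Vehicle libraries held 25.5, 24.7 and 24.2 FPKM and nanoparticle libraries 15.7, 38.8 and 39.4 FPKM, with library 1 below and libraries 2 and 3 above all vehicle libraries. Its log2 change was 0.22 (SE 0.346, adjusted p = 0.674 by limma) and 0.64 without nanoparticle library 1 (adjusted p = 1.0e-04 by limma). The transcript of its adaptor, Tyrobp, also lay below vehicle in library 1 and above it in libraries 2 and 3, at 449, 902 and 1025 FPKM against 815 to 860 FPKM in vehicle (log2 change -0.15, adjusted p = 0.749 by limma).

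Clec4a2, the gene of the inhibitory receptor DCIR (ENSMUSG00000030148, chromosome 6, 123106428 to 123143999, plus strand), was at 91.4, 87.7 and 89.3 FPKM in vehicle and at 9.73, 62.3 and 70.9 FPKM in nanoparticle libraries 1 to 3. All nanoparticle libraries were below all vehicle libraries, but library 1 was 9.19-fold below the vehicle mean and the mean of libraries 2 and 3 was 1.34-fold below it. With so wide a spread the log2 change of -1.31 (SE 0.710) did not pass (adjusted p = 0.210 by limma). Without nanoparticle library 1 it was -0.42 and passed (adjusted p = 0.0017 by limma).

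Clec7a, the gene of Dectin-1 (ENSMUSG00000079293, chromosome 6, 129461591 to 129472779, minus strand, listed by GENCODE M21 as a polymorphic pseudogene), differed little between the groups. It was at 497, 482 and 496 FPKM in vehicle and at 621, 498 and 560 FPKM with nanoparticles. The lowest nanoparticle value lay only just above the highest vehicle value. Its log2 change was 0.18 (SE 0.142, adjusted p = 0.378 by limma), and 0.10 without nanoparticle library 1 (SE 0.0635, adjusted p = 0.197 by limma). With equal FPKM sums, upper quartiles or read totals its log2 change was -0.29, -0.012 and -0.16, and relative to the median of all genes it was 0.096, 0.15 and 0.12, against 0.18 without rescaling. It passed the test in none of these.

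In vehicle the order of levels, from highest to lowest mean, was Clec4n (1707 ± 20.4 FPKM), Clec7a (492 ± 8.16), Clec4d (147 ± 3.24), Clec4a2 (89.5 ± 1.83), Mrc1 (56.3 ± 5.75), Clec5a (24.8 ± 0.660), Clec10a (6.92 ± 1.12), Cd209a (5.69 ± 0.523) and Clec4e (3.72 ± 1.03, SD, n = 3 per group). Of the neighbours in this order, only Clec10a and Cd209a overlapped in their library values. With nanoparticles the order became Clec4n, Clec7a, Clec4e, Clec4d, Clec4a2, Clec5a, Mrc1, Clec10a and Cd209a. There, the values of Clec7a and Clec4e, of Clec4e and Clec4d, and of Clec4a2 and Clec5a overlapped across libraries.

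The make-up of the receptor transcripts moved accordingly. Summed over the 9 genes, vehicle libraries held 2525 to 2537 FPKM and nanoparticle libraries 1 to 3 held 2471, 3718 and 3973 FPKM. Clec4n made up 66.7% to 68.0% of that sum in vehicle and 31.5%, 61.7% and 62.3% with nanoparticles. The share of Clec4e was 0.1005% to 0.176% in vehicle and 27.7%, 10.3% and 8.99% with nanoparticles, so that Mincle transcripts went from the smallest part of the sum to one of the 4 largest in each treated library. Mrc1 made up 2.04% to 2.49% in vehicle and 0.126% to 0.286% with nanoparticles. These shares add up to a whole and were not tested.

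**Figure D3:**
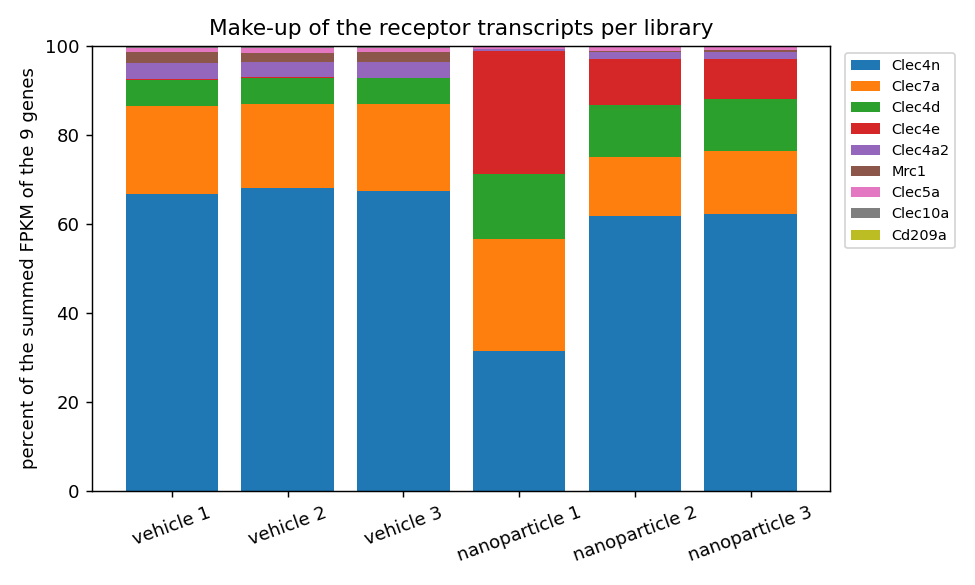
Percent of the summed FPKM of the 9 receptor genes taken by each gene, for each library as 1 stacked bar. Clec4n takes 66.7% to 68.0% in the vehicle libraries, and Clec4e takes 27.7% in nanoparticle library 1 and 10.3% and 8.99% in libraries 2 and 3.

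Clec4a2, Clec4n, Clec4d and Clec4e lie in 1 run of related genes on chromosome 6, which from Clec4a1 to Clec4e spans 368 kb. In chromosomal order its protein-coding genes are Clec4a1, Clec4a3, Clec4a4, Clec4b1, Clec4a2, Clec4b2, Clec4n, Clec4d and Clec4e. Of the genes before Clec4n, 2 passed the test, both lower, of which Clec4a4 was tested through its vehicle libraries alone. Clec4a3 fell from 15.2, 15.8 and 13.7 FPKM to 1.66, 5.05 and 5.75 FPKM (log2 change -1.73, adjusted p = 0.011 by limma), and Clec4a4 was at 1.37 to 1.88 FPKM in vehicle and at 0, 0.545 and 0.468 FPKM with nanoparticles. Clec4b1 was at 40.6 to 44.7 FPKM in vehicle and at 2.03, 21.7 and 27.3 FPKM in nanoparticle libraries 1 to 3, with a log2 change of -1.79 (adjusted p = 0.145 by limma) that was -0.77 without library 1 (adjusted p = 7.3e-04 by limma) and -2.24 with equal FPKM sums (adjusted p = 0.045 by limma). Clec4a1 had a log2 change of 0.06 (adjusted p = 0.905 by limma), and Clec4b2 was at most 0.0428 FPKM. The Clec4a and Clec4b genes resemble each other in sequence, and how reads shared between them were counted is not given in the sources used here, so their separate values are uncertain.

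**Figure D4:**
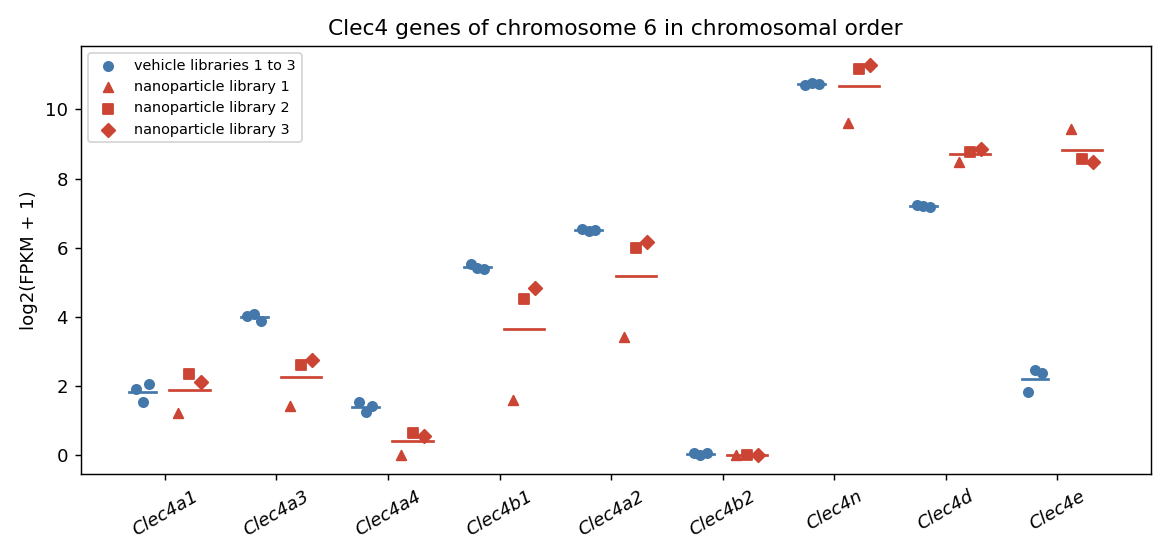
Levels of the protein-coding Clec4 genes of chromosome 6, in chromosomal order, as log2(FPKM + 1) in each library; horizontal lines are group means. Clec4a3, Clec4a4, Clec4b1 and Clec4a2 have lower nanoparticle means, while Clec4d and Clec4e, at the other end of the run, have higher ones.

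A list of 32 further C-type lectin receptor genes puts the 9 in context. Of these, 21 were tested, 7 were below the filter on low levels and 4 were not analysed here. Of the 21 tested, 5 were higher and 12 were lower with nanoparticles and 4 did not pass, with a median log2 change of -0.74, beside 33.2% passing and a median of -0.0010 over all genes tested. Without nanoparticle library 1, 5 were higher and 13 lower, beside 64.8% of all genes. With equal FPKM sums 5 were higher and 15 lower (median -1.18, against -0.39 over all genes). Of the 12 lower, 4 (Cd209c, Cd209d, Clec2i and Clec4a4) reached 1 FPKM in vehicle libraries alone, so the filter on low levels let them in only because they were high there, and the counts and the median hold them. Mgl2, the other galactose-binding lectin beside Clec10a, went from 232 ± 17.2 to 65.3 ± 26.6 FPKM (log2 change -1.91, adjusted p = 0.0064 by limma). The relatives of Cd209a had means of 5.21 ± 0.299 and 0.155 ± 0.144 FPKM (Cd209c) and of 2.502 ± 0.518 and 0.221 ± 0.202 FPKM (Cd209d) in vehicle and with nanoparticles (SD, n = 3 per group). Cd93, a lectin-like receptor of myeloid and endothelial cells, fell from 27.8 ± 0.420 to 4.14 ± 1.99 FPKM (log2 change -2.58, adjusted p = 0.0016 by limma).

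The genes of the list that rose included an uptake receptor. Ly75 (CD205), an endocytic receptor of dendritic cells with the same overall build as Mrc1, was at 3.29, 3.55 and 3.97 FPKM in vehicle and at 25.8, 15.2 and 12.8 FPKM in nanoparticle libraries 1 to 3. The groups did not overlap, and its log2 change was 1.98 (SE 0.249, adjusted p = 0.0018 by limma). Olr1, a receptor for oxidized lipoprotein, rose from 23.6 ± 0.779 to 160 ± 43.2 FPKM (log2 change 2.68, adjusted p = 2.6e-04 by limma). Cd69, an early activation marker of leukocytes, rose from 0.966 ± 0.107 to 21.2 ± 4.74 FPKM (log2 change 3.48, adjusted p = 7.1e-05 by limma). Of its vehicle libraries only library 3 reached 1 FPKM (1.08 FPKM). The filter on low levels thus let Cd69 in through its nanoparticle libraries, where it was high. Cd302 rose with a log2 change of 1.55 (adjusted p = 0.0061 by limma) and Clec2d with 1.24 (adjusted p = 0.0026 by limma).

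Downstream of the activating receptors, all 20 signalling genes listed (adaptors, kinases and other signalling proteins) were tested. Of these, 10 were higher, 5 lower and 5 did not pass (median log2 change 0.19), beside 33.2% of all genes passing. Without nanoparticle library 1, 12 were higher and 8 lower, beside 64.8% of all genes. Fcer1g, the gamma chain that Clec4n, Clec4d and Clec4e need, was at 463, 475 and 468 FPKM in vehicle and at 834, 903 and 954 FPKM with nanoparticles, with no overlap (log2 change 0.93, SE 0.134, adjusted p = 0.0030 by limma, and 0.46, adjusted p = 0.016, with equal FPKM sums). Syk rose from 37.3 ± 0.235 to 86.0 ± 22.2 FPKM (log2 change 1.15, adjusted p = 0.0046 by limma), a call lost with equal FPKM sums (0.69, adjusted p = 0.055 by limma). The kinase gene Src rose with a log2 change of 2.29 (adjusted p = 2.9e-04 by limma). Card9, the adaptor that links Syk to NF-kappaB, was at 26.7 to 29.6 FPKM in vehicle and 14.2, 21.6 and 21.1 FPKM with nanoparticles (log2 change -0.55, adjusted p = 0.052 by limma, and -0.37 without nanoparticle library 1, adjusted p = 0.0025 by limma). Card9 passed under all 3 rescalings, with log2 changes of -1.006, -0.74 and -0.88. Pik3cd, the delta catalytic subunit of phosphoinositide 3-kinase, fell from 43.2 ± 0.941 to 19.7 ± 2.497 FPKM (log2 change -1.10, adjusted p = 0.0011 by limma). The split of this list moved with the scaling of the libraries, to 3 higher and 9 lower with equal sums of FPKM, 7 and 7 with equal upper quartiles and 5 and 7 with equal read totals.

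**Figure D5:**
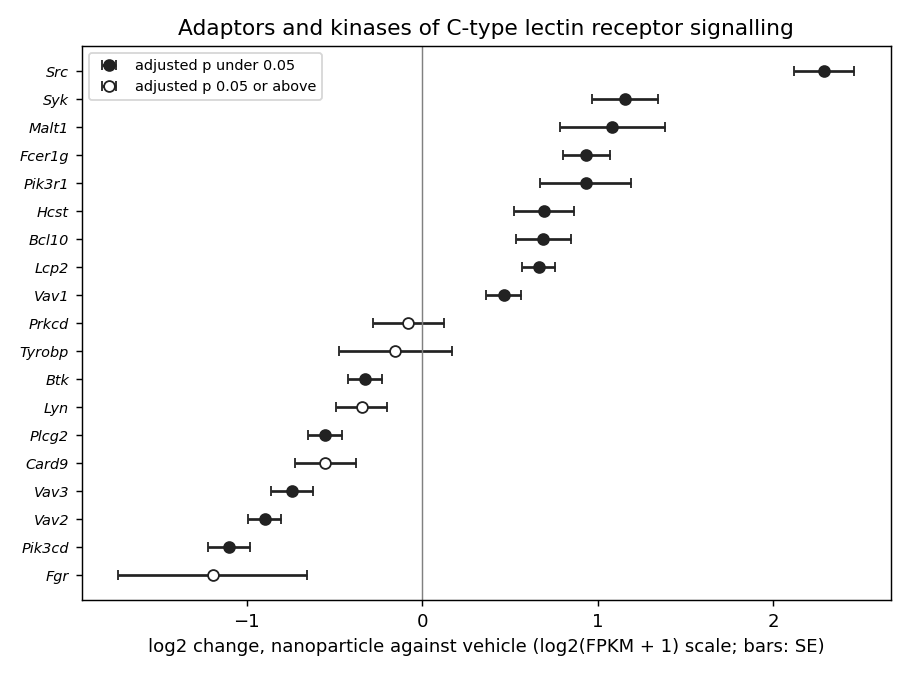
Log2 change with nanoparticles of 19 of the 20 genes listed for C-type lectin receptor signalling (adaptors, kinases and other signalling proteins), ordered by size. Bars are standard errors, and filled points passed the test. Src has the highest value at 2.29, and Pik3cd has the lowest of the genes that passed, at -1.10.

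Among 8 genes of a list of inhibitory signalling, 1 was higher and 1 lower, 1 and 5 without nanoparticle library 1, and 0 and 6 with libraries rescaled to equal FPKM sums. Over all genes tested, 17.0% were higher and 16.2% lower, or 34.3% and 30.5% without nanoparticle library 1. With equal FPKM sums, 863 of 10814 genes were higher and 4416 lower, so much of the move to lower counts is shared by all genes. Inpp5d, the lipid phosphatase SHIP1, fell from 24.3 ± 0.645 to 10.4 ± 0.854 FPKM (SD, n = 3 per group, log2 change -1.15, adjusted p = 4.7e-04 by limma), and the adaptor Dok1 rose with a log2 change of 0.85 (adjusted p = 0.041 by limma), a call lost with equal FPKM sums (0.39, adjusted p = 0.118 by limma) and with equal read totals (0.51, adjusted p = 0.119 by limma). Ptpn6 (SHP-1), a phosphatase that inhibitory motifs such as that of DCIR recruit, was at 53.1 to 57.8 FPKM in vehicle and at 30.9, 59.1 and 63.2 FPKM in nanoparticle libraries 1 to 3 (log2 change -0.18, adjusted p = 0.654 by limma, and -0.64, adjusted p = 0.041, with equal FPKM sums).

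A list of 15 myeloid transcription factor and cytokine receptor genes went both ways, with 3 higher, 3 lower and 9 not passing (median log2 change 0.07), 6 higher and 5 lower without nanoparticle library 1, and 3 higher and 5 lower with equal FPKM sums. The share passing over all genes tested was 33.2%, and 64.8% without nanoparticle library 1, so these counts are near what all genes gave. With equal FPKM sums, 863 of all 10814 genes were higher and 4416 lower. Besides Cebpb, Relb rose with a log2 change of 2.03 (adjusted p = 2.7e-04 by limma). Klf4 fell from 17.9 ± 0.487 to 2.55 ± 0.834 FPKM (log2 change -2.44, adjusted p = 2.3e-04 by limma) and Pparg, a nuclear receptor associated with Mrc1 expression in macrophages, from 6.51 ± 0.771 to 1.42 ± 0.736 FPKM (SD, n = 3 per group, log2 change -1.68, adjusted p = 0.0033 by limma). Of 9 tested genes of a list responsive to IL-4, a cytokine known to raise Mrc1, 4 were higher and 3 lower (median log2 change 0.49), 5 and 3 without nanoparticle library 1, and 3 and 4 with equal FPKM sums. The same background over all genes tested applies to these counts. Ccl22 rose with a log2 change of 3.30 (adjusted p = 5.2e-04 by limma) and Tgm2 with 2.43 (adjusted p = 0.014 by limma), while Fn1 fell (log2 change -2.61, adjusted p = 0.0053 by limma). Alox15, one of the 3 lower, was tested through its vehicle libraries alone and was at 0, 0.862 and 0.211 FPKM with nanoparticles.

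The genes whose pattern over the 6 libraries lay closest to each receptor were found by the root mean square difference of log2(FPKM + 1) values centred on each gene's mean. For Clec4e these were Ifit3 (0.188), Oasl1 (0.194) and Acod1 (0.275), and for Clec4d they were Slc16a10 (0.0729), Ctsk (0.0774) and Nfkbie (0.0775). Mrc1 was closest to Asb2 (0.105), Hr (0.130) and Fn1 (0.152). Cd209a was closest to Top2a (0.0894) and Clec10a to Ccnb1 (0.0879), both genes of cell division that were at most 1.27 FPKM in the nanoparticle libraries, a range in which adding 1 compresses differences. Clec4a2 was closest to Ppp1r1a (0.121), Clec7a to Wipi2 (0.0262), Clec4n to Rps26 (0.0408) and Clec5a to Tma7 (0.0454).

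Marker genes of the cells of marrow cultures are given as counts and sums, beside 33.2% of all genes tested passing. With equal FPKM sums, 863 of all 10814 genes were higher and 4416 lower. Of 12 macrophage and monocyte genes, 5 were higher and 5 lower (2 and 6 with equal FPKM sums), and their summed level was 1160 to 1299 FPKM in vehicle and 1495 to 1877 FPKM with nanoparticles. Cd14 rose with a log2 change of 3.11 (adjusted p = 9.2e-05 by limma), while Ccr2 fell (log2 change -2.65, adjusted p = 0.0086 by limma). Of 12 neutrophil genes, 4 were tested, with 2 higher (of which Csf3r reached 1 FPKM with nanoparticles alone) and 1 lower, at a summed 266 to 299 and 185 to 257 FPKM, and the defining marker Ly6g was at most 0.192 FPKM. The largest part of that sum was Mmp8, the 1 lower, at 230 to 259 FPKM in vehicle and 129 to 133 FPKM with nanoparticles. S100a8, 1 of the 2 higher, went the other way, from 33.4 to 36.0 FPKM in vehicle to 50.1 to 109 FPKM. All 8 lymphocyte genes stayed under 1 FPKM in every library. Of 8 mast cell and basophil genes, 1 was not analysed here and 4 were tested, with 1 higher (Hdc, which reached 1 FPKM with nanoparticles alone) and 1 lower (Gata2), and the list summed to 3.93 to 6.16 and 10.3 to 26.1 FPKM. The higher sum rests on Hdc, at 0.196 to 0.474 FPKM in vehicle and 24.1, 6.69 and 6.76 FPKM in nanoparticle libraries 1 to 3. Gata2 was at 2.38 to 3.22 FPKM in vehicle and 0.817 to 1.71 FPKM with nanoparticles. Of 9 dendritic cell genes, 6 were tested, and 1 was higher (Cd86) and 1 lower (Zbtb46), or 1 and 3 with equal FPKM sums, at a summed 5559 to 5954 and 3324 to 7069 FPKM. The part of cell composition in the receptor changes was not tested.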

How the data were processed

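The 2 deposited tables list 23398 genes each, 1 of them is named for read counts, and all 140388 values matched between them. The submitters' processing notes name STAR 2.5, HTSeq, edgeR 3.16.5 and DESeq2 with the builds mm10 and hg19, but no roles. No label or header gives the unit. The deposited values were taken as FPKM made by the authors, because multiplying them by the merged exon length of GENCODE M21 (GRCm38) and 1 scale per library gave whole reads, within 0.01, for 95.8% to 96.1% of the values above 0. The reads of all 9 receptors came out whole. The library scales followed median-of-ratios size factors within 0.0097%, so the FPKM carry a scaling that takes most genes as unchanged. Recovered totals of 17300128 to 21990197 reads set the counting error.

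limma 3.58.1 in R 4.3.3 was run on log2(FPKM + 1) with group as its only term, lmFit and eBayes with a mean-variance trend, for the 10682 genes that reached 1 FPKM in 3 or more libraries. P-values were adjusted by the Benjamini-Hochberg method over all genes tested, and the code was tested on simulated data. Tables were handled with Python 3.11.15, numpy 2.4.6 and pandas 2.3.3, and figures drawn with matplotlib 3.10.9. Genes named are the 9 receptors, genes of the C-type lectin list, Fcer1g, Tyrobp, Syk, Card9 and Ptpn6, up to 4 called genes of each other list by size of change, and the nearest genes by pattern, and some genes that these rules name are not reported here. The receptors and lists were chosen with earlier results of these data known. Of the lists, the further C-type lectin, signalling, inhibitory, transcription and IL-4 lists, and the dendritic cell, macrophage and monocyte, neutrophil, mast cell and basophil, and lymphocyte lists, the counts are given without a set test. Alternatives were another pseudocount, filters, 3 rescalings, no trend, library weights, a replicate block and leaving out each library. Rescaling by read totals was added after the data were seen.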

Additional observations from a re-analysis of the deposited data

How the results depend on the processing

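The directions and calls of Mrc1, Cd209a, Clec10a, Clec4d and Clec4e were the same under all 15 alternatives run.

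The number of genes past the threshold, 3550, was 2141 to 6923 when each library was left out in turn, the highest without nanoparticle library 1 and the lowest without vehicle library 3. These fits kept the 10682 genes of the full analysis, a choice made after a first run, with the filter on low values applied again to the remaining libraries, had given 1783 to 6696. In that first form Cd209a fell below the filter without any 1 vehicle library and had no test, and the calls of the other 8 receptors were those given here. With library weights, whose estimation stopped before it converged, it was 8716. Leaving out each library gave log2 changes of -0.35 to 0.48 for Clec4n, -1.80 to -0.42 for Clec4a2 and -1.5e-04 to 0.64 for Clec5a. The value of Clec5a was, among these, on the other side of 0 without nanoparticle library 3, and that of Clec4n without nanoparticle library 1. Of these fits, the one without nanoparticle library 1 alone put Clec4n, Clec4a2 and Clec5a past the threshold. With library weights the log2 changes were 0.42 for Clec4n, -0.52 for Clec4a2 and 0.63 for Clec5a, and all 3 passed. Clec7a turned to -0.29 with equal FPKM sums, -0.012 with equal upper quartiles and -0.16 with equal read totals, and Clec5a to -0.24 and -0.12 with equal sums and totals, as each rescaling moves all genes.

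With the replicate number as a block, 2785 genes passed and no receptor changed its call. Deviations from the group means correlated at 0.065, 0.113 and -0.058 between same-numbered libraries, so the numbers were not taken as pairs. Depth limits Cd209a, with 2 reads in all nanoparticle libraries, and Clec10a, with 24 to 58.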
